A study of Arabidopsis thaliana with 12 samples.

Results

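The transcriptome of Arabidopsis thaliana seedlings 4 min after hydrogen peroxide (H2O2) was added was compared with that of seedlings frozen at 0 min, when distilled water had been added. The 4 min group was 3 libraries of wild-type Col-0 seedlings given 1 mM H2O2, and the 0 min group was 3 libraries of the same ecotype given water. All seedlings were 5 days old, had grown on a shaker in liquid MS medium under constant light, and were pooled, so that each library averages over many whole seedlings. The comparison used 6 of the 12 libraries of the series, the other 6 being seedlings at 2 and 8 min of the same treatment. Of the 20972 genes listed, the 19485 with a mean of at least 10 normalized read counts (gene reads divided by a scaling factor for each library) over the 12 libraries were compared. No seedlings given water were sampled at 4 min, so the effect of H2O2 and that of 4 min in the dosed medium, handling included, cannot be told apart in these libraries.

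H2O2 is a reactive oxygen species (ROS) that plant cells make at the plasma membrane and in chloroplasts, mitochondria and peroxisomes, and that crosses membranes through aquaporins. As a signal it is linked to calcium release, to mitogen-activated protein (MAP) kinase cascades and to the rapid transcription of genes for zinc finger, ERF and WRKY transcription factors. It is removed by catalases, peroxiredoxins and ascorbate and glutathione peroxidases.

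The libraries held 15951420 to 19467934 reads on genes at 4 min, against 15993787 to 18980835 at 0 min, and log2 levels correlated across genes at 0.985 to 0.990 within the 4 min group and 0.987 to 0.989 within the 0 min group. Among whole-seedling tissues, green shoot and root markers were abundant in all 12 libraries. At 4 min 0 of the 9 root markers tested passed in limma (1 was lower at an unadjusted p under 0.05 and in DESeq2), and 0 of the 8 green shoot markers (1 higher at an unadjusted p under 0.05). Of 5 pollen and flower markers, 1 was listed, at low levels. Within the 4 min group, 1 library stood apart. The 5 dry seed markers summed to 4809 normalized counts in 4 min replicate 2, against 15160 to 72693 in the other 11 libraries. The lowest of those 11 was 8 min replicate 3. Its deviations from its group mean correlated at 0.46 with those of 4 min replicate 2. In 4 min replicate 2, 91 genes lay at least 4-fold from the mean log2 level of the other 4 min libraries. By the same measure replicate 1 had 6 such genes and replicate 3 had 29. The part of ungerminated or late seed in the results was not tested, and counts without 4 min replicate 2 are given for the main comparison and for the gene lists.

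At 4 min, 147 genes were higher (0.754% of the 19485 tested) and 11 were lower (0.0565%) than at 0 min, at a Benjamini-Hochberg adjusted p under 0.05 in limma's moderated test on log2(normalized count + 1). For these 158 genes, the 3 libraries at 4 min did not overlap the 3 at 0 min, as was also true of 10.5% of all tested genes in the upward direction and 9.5% in the downward direction. The rises had a median log2 change of 0.94 (range 0.33 to 3.72), with 66 genes at 1 or more and 9 at 2 or more. In whole seedlings, a change in the share of cells that express a gene and a change in RNA per cell cannot be told apart. The falls were small, with a median of -0.61 (-1.13 to -0.41). Without 4 min replicate 2 the counts were 117 higher and 13 lower, and without 4 min replicate 1 they were 41 and 0. They were 67 and 7 without 4 min replicate 3, 97 and 8 without 2 min replicate 2, 60 and 5 without 0 min replicate 3, and 318 and 54 without 8 min replicate 1, while DESeq2 called 368 and 125 and edgeR 130 and 8. The count of lower genes also moved to 5 without 0 min replicate 2, 7 without 2 min replicate 1 and 20 without 8 min replicate 2. At an unadjusted p under 0.05, 1675 genes were higher (8.6%) and 1367 lower (7.02%).

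**Figure D1:**
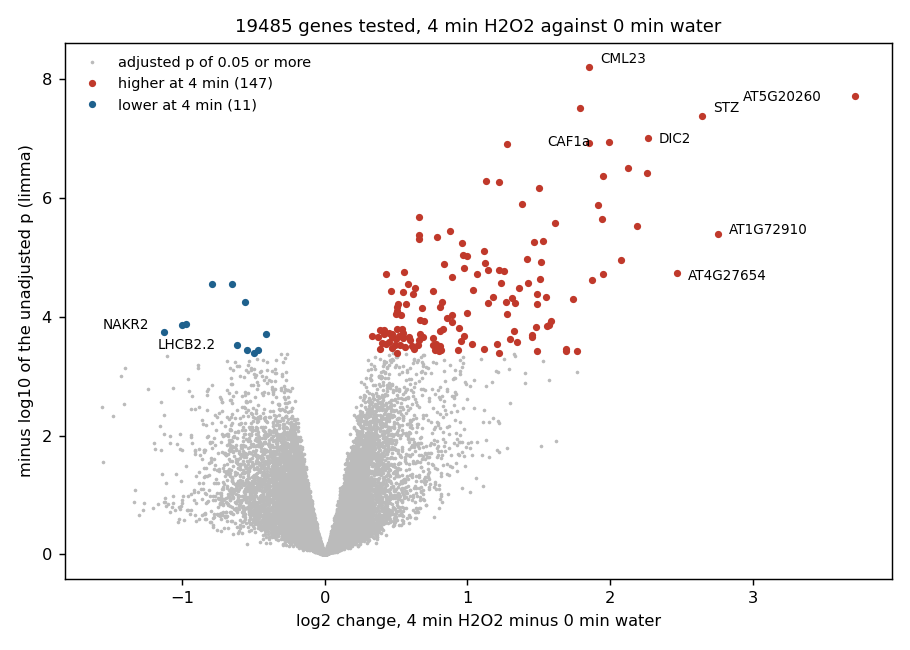
Each point is 1 of the 19485 genes, with the log2 change at 4 min of H2O2 relative to 0 min in water on the x axis and minus log10 of limma's unadjusted p on the y axis. The 147 genes higher at 4 min (red) reach a log2 change of 3.72 in AT5G20260, whereas the 11 lower ones (blue) end at -1.13 in NAKR2.

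Genes for C2H2 zinc finger proteins led the named regulators. STZ (AT1G27730, also called ZAT10), a transcriptional repressor of abiotic stress responses, had 1992, 996 and 1159 normalized counts at 4 min, against 202, 219 and 211 at 0 min. The log2 change was 2.64 ± 0.24 (standard error) with adjusted p = 0.000201. RHL41 (AT5G59820, ZAT12), known from responses to high light and oxidative stress, had 666, 367 and 411 normalized counts at 4 min, against 122, 137 and 102 at 0 min. This was a log2 change of 1.95 ± 0.21 with adjusted p = 0.000768. The groups were far apart for both genes, with the highest level in 4 min replicate 1. ZAT6 (AT5G04340) had 406, 240 and 314 normalized counts at 4 min, against 81.3, 128 and 119.9 at 0 min, and its log2 change was 1.53 ± 0.21 (adjusted p = 0.00391). ZAT11 (AT2G37430) had 52.8, 49.3 and 58.1 normalized counts at 4 min, against 17.63, 16.8 and 20.9 at 0 min, and its log2 change was 1.49 ± 0.26 (adjusted p = 0.0163). CZF1 (AT2G40140, also called SZF2), a CCCH zinc finger protein, rose less, with 1938, 1337 and 1483 normalized counts at 4 min, against 1003, 891 and 1016 at 0 min and a log2 change of 0.69 ± 0.13 (adjusted p = 0.0268). Thus 5 of the 13 zinc finger genes tested rose and 0 fell, where 0.754% of all genes tested rose and 0.0565% fell. The list median was 0.63, against -0.01 over all genes tested. This list and the other gene lists were chosen with earlier results of these data known, so such contrasts only describe the lists. Without 4 min replicate 1, 3 of the 5 passed. SZF1 (AT3G55980), the partner of CZF1, had 1955, 1232 and 1435 normalized counts at 4 min, against 1044, 611 and 751 at 0 min, which did not pass (adjusted p = 0.0639).

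The 250 bases upstream of the annotated transcription start are shown for 4 of these early genes, STZ and ZAT6 because they hold GCCGCC and RHL41 and CML23 because they hold CGCGT. The GCC box GCCGCC is bound by ERF proteins, and CGCGT is the core of the element bound by CAMTA proteins, the calmodulin-binding transcription activators. The sequences are RefSeq's, from the TAIR10.1 assembly, written 5′ to 3′ on the strand of the gene, with either motif on either strand in capitals (GGCGGC and ACGCG are the reverse complements). The STZ window is chr1:9649324-9649573 (minus strand), with the motif 82 to 77 bases before the start. The ZAT6 window is chr5:1217363-1217612 (minus strand), with the motif 41 to 36 bases before it. The RHL41 window is chr5:24102564-24102813 (plus strand) and the CML23 window chr1:24771394-24771643 (minus strand), with the first capital 45 and 56 bases before the start.
STZ: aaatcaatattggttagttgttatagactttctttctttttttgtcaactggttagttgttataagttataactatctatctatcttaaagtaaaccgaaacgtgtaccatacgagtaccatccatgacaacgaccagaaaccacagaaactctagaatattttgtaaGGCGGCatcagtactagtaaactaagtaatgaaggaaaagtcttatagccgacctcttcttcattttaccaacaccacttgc
ZAT6: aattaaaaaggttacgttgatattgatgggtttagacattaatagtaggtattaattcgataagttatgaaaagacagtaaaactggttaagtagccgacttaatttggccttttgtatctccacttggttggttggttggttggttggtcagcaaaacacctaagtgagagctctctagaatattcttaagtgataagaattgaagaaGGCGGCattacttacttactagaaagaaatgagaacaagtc
RHL41: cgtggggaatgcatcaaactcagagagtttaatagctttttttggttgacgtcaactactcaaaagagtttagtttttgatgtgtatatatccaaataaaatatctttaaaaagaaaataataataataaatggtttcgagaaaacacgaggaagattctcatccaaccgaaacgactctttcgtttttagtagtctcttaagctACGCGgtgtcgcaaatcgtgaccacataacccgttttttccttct
CML23: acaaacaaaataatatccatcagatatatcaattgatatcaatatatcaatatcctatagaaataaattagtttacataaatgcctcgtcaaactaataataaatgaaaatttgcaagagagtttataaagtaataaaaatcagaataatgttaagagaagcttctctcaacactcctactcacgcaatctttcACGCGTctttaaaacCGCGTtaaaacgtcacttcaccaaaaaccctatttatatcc

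Over all 19381 tested genes with such a window, 1.97% held GCCGCC. It was present upstream of 6 of the 66 genes with a log2 change of 1 or more (9.09%), which were STZ, ZAT6, ERF11, MKK9 and the neighbours AT1G72900 and AT1G72920, and of 2 of the 81 genes that rose by less (2.47%). CGCGT was found upstream of 14 of the 66 (21.2%) and 11 of the 81 (13.6%), against 7.39% of all genes. The W-box, the site of WRKY factors, searched as TTGACC or TTGACT on both strands, was upstream of 27 of the 66 (40.9%) and 33 of the 81 (40.7%), against 28.5% of all genes. The G-box CACGTG, at 4 of the 66 (6.06%) and 7 of the 81 (8.64%), was close to its share of 7.56% in all genes. No motif contains another, although TTGACC and TTGACT share their first 5 bases, and a match describes letters in the window only.

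ERF and DREB factors, which bind GCC boxes and dehydration-responsive elements, were the list with the most rises, 8 of 24 tested. Over all genes tested 0.754% rose. The list median was 0.60, with 0 falls. ERF104 (AT5G61600), known as a substrate of the MAP kinase MPK6, had 2702, 1654 and 1900.4 normalized counts at 4 min, against 513, 639.9 and 549 at 0 min. On the log2 scale the change was 1.85 ± 0.18 (adjusted p = 0.000298). ERF5 (AT5G47230) had 577, 376 and 466 normalized counts at 4 min, against 148, 120.1 and 136 at 0 min, and its log2 change was 1.79 ± 0.16 (adjusted p = 0.000201). Its relative ERF6 (AT4G17490) had 736, 434 and 442 normalized counts at 4 min, against 209.6, 211 and 186 at 0 min, and its log2 change was 1.36 ± 0.22 (adjusted p = 0.0115). The gene beside ERF6 on chromosome 4, ERF1A (AT4G17500), had 721, 627 and 667 normalized counts at 4 min, against 369, 377 and 346 at 0 min, and its log2 change was 0.88 ± 0.12 (adjusted p = 0.00337). ERF11 (AT1G28370), a repressor of ethylene biosynthesis genes, had 87.6, 63.2 and 71.3 normalized counts at 4 min, against 22.5, 16.8 and 38.1 at 0 min, a log2 change of 1.55. ERF13, DREB2A and DREB26 also rose, by 1.69, 0.95 and 1.118 on the log2 scale. For DREB2A, a regulator of drought and heat responses, the gap between groups was narrow, with 634, 420.0 and 498 normalized counts at 4 min, against 221, 217 and 379 at 0 min. Without 4 min replicate 1 the list had 4 rises, and without 4 min replicate 2 it had 8.

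**Figure D2:**
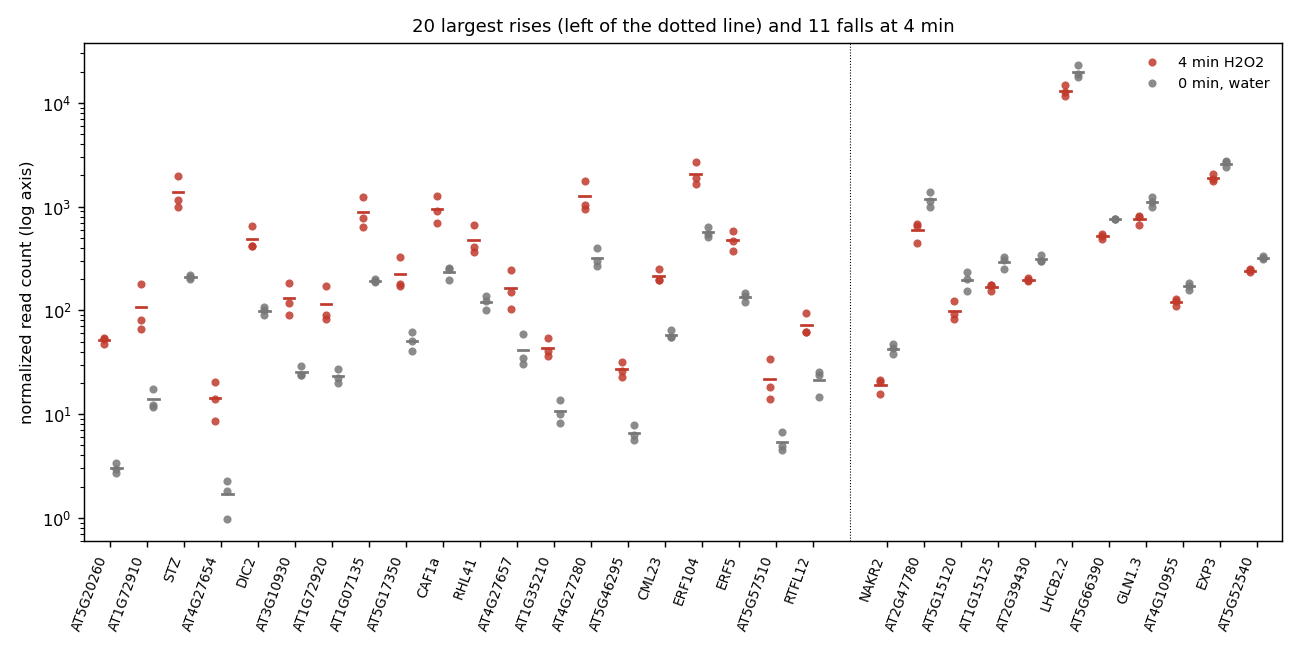
Normalized read counts on a log axis for the 20 genes with the largest rises and the 11 genes that fell, with 1 point per library at 4 min of H2O2 (red, left of each pair) and at 0 min in water (grey) and a bar at the mean. No pair of groups overlaps, and the 4 min points of most rises spread more widely than the 0 min points, with replicate 1 highest in most.

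Calcium genes formed a further group. CML23 (AT1G66400), a calmodulin-like calcium sensor, had the smallest adjusted p of all genes, with 250.4, 198 and 195 normalized counts at 4 min, against 54.8, 55 and 65.4 at 0 min. The limma estimate was 1.85 ± 0.14 on the log2 scale (adjusted p = 0.000122). Its close relative TCH2 (AT5G37770), first known as a touch-induced gene, had 1157, 825 and 829 normalized counts at 4 min, against 487, 412 and 381 at 0 min, and its log2 change was 1.121 ± 0.17 (adjusted p = 0.00685). TCH2 overlaps AT5G37760 on the opposite strand by 723 bases, and whether reads were counted by strand is not given in the sources used here. CML38 (AT1G76650) had 225, 114 and 161 normalized counts at 4 min, against 55.8, 40.4 and 64.5 at 0 min, and its log2 change was 1.59 ± 0.30 (adjusted p = 0.0268). AT3G10190, annotated as a calcium-binding EF-hand protein, had 342, 274 and 293 normalized counts at 4 min, against 104, 207 and 118 at 0 min, a log2 change of 1.14. CBP60G (AT5G26920), a calmodulin-binding activator of salicylic acid synthesis, changed least of the 5, with 511, 547 and 556 normalized counts at 4 min, against 359, 385 and 272 at 0 min and a log2 change of 0.68 ± 0.12 (adjusted p = 0.0183). The 5 rises were among 46 list members tested, against 0.754% of all genes tested. The list median was 0.11, and without 4 min replicate 1 the list had 2 rises. Counted over the annotation instead, 8 of 52 EF-hand genes rose (15.4%, against 0.754% of all genes tested), with a family median of 0.05. This family was chosen after the values were seen. The largest change among them was that of AT4G27280, which had 1778, 956 and 1029 normalized counts at 4 min, against 302, 397 and 268 at 0 min. The change came to 1.92 ± 0.23 in log2 units (adjusted p = 0.00161).

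A run of 5 neighbouring genes on chromosome 1 (27432178 to 27443859, TAIR10.1 annotation) rose together, the longest of 4 such runs that held 11 of the 147 genes. All 5 encode proteins with a Toll/interleukin-1 receptor (TIR) domain, the signalling domain of many plant immune receptors. AT1G72910 had 179, 80.4 and 66 normalized counts at 4 min, against 17.63, 12.3 and 11.8 at 0 min. The log2 change was 2.75 ± 0.37 (standard error) with adjusted p = 0.00356. AT1G72920 had 173, 82.5 and 90.7 normalized counts at 4 min, against 27.4, 22.5 and 20 at 0 min, and its log2 change was 2.19 ± 0.29 (adjusted p = 0.0029). AT1G72900 had 478, 294 and 338 normalized counts at 4 min, against 99.9, 121 and 134 at 0 min, and its log2 change was 1.62 ± 0.21 (adjusted p = 0.00272). The gene named TIR (AT1G72930) had 509.8, 326 and 369.9 normalized counts at 4 min, against 175, 99.9 and 147 at 0 min, a log2 change of 1.52, and AT1G72940 had 284, 209 and 210.5 normalized counts at 4 min, against 138, 110.0 and 149 at 0 min, a change of 0.82. The genes share sequence, since 301 of the 1727 stretches of 50 bases in AT1G72910 recur in AT1G72930 and 168 of the 1168 in AT1G72920 recur in AT1G72940, so their counts may be partly exchanged. AT1G72900 shared no such stretch with another gene. In the whole annotation 7 of 98 TIR domain genes rose (7.14%, against 0.754% of all genes tested). Apart from the 5 neighbours these were AT1G66090 and AT4G09420, and this family too was chosen after the values were seen.

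The largest rise of all was that of AT5G20260, annotated as a member of the exostosin family of glycosyltransferases, which had 52.8, 54.6 and 47.6 normalized counts at 4 min, against 2.94, 3.37 and 2.72 at 0 min. With 152 reads in total at 4 min and 9 at 0 min, the ratio was 17.2 (95% counting interval 8.82 to 38.3), and limma gave a log2 change of 3.72 and adjusted p = 0.000187. The 4 min libraries differed little among themselves, unlike those of most other leading genes. The gene overlaps DIN10 on the opposite strand by 82 bases. AT4G27654, an uncharacterized gene, was also near the floor, with 20.2, 8.57 and 14.1 normalized counts at 4 min, against 0.979, 2.25 and 1.82 at 0 min, or 42 reads against 5 in all. Its ratio was 8.55 (95% counting interval 3.39 to 27.7). Its neighbour AT4G27657, likewise uncharacterized, had 243, 104 and 151 normalized counts at 4 min, against 30.4, 59.5 and 34.5 at 0 min, and its log2 change was 1.95 ± 0.30 (adjusted p = 0.00841). Uncharacterized genes made up 16 of the 147 rises, out of 1034 so annotated (1.55%, against 0.754% of all genes tested). Among them AT3G10930 had 183, 91.1 and 117 normalized counts at 4 min, against 29.4, 23.58 and 23.62 at 0 min, and its log2 change was 2.26 ± 0.25 (adjusted p = 0.000741). AT5G17350 had 328, 181 and 171 normalized counts at 4 min, against 50.9, 61.7 and 40.9 at 0 min, a change of 2.08, while AT1G35210 and AT5G46295, expressed at lower levels, changed by 1.94 and 1.88. The glycine-rich protein gene AT1G07135 was far more abundant, with 1231, 637 and 777 normalized counts at 4 min, against 189, 193 and 199 at 0 min, and its log2 change was 2.125 ± 0.23 (adjusted p = 0.000685).

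Mitochondrial and RNA turnover lists each held a large rise amid members that did not pass. Over all genes tested 0.754% rose. DIC2 (AT4G24570), a dicarboxylate carrier of the inner mitochondrial membrane, had 650.2, 414 and 415 normalized counts at 4 min, against 101, 89.8 and 108 at 0 min. This was a log2 change of 2.27 ± 0.22 with adjusted p = 0.000298. UCP5 (AT2G22500, also called DIC1), a carrier of the same type, had 422, 306 and 341 normalized counts at 4 min, against 203, 230.1 and 175 at 0 min, a log2 change of 0.81 that did not pass without 4 min replicate 1. The other 13 mitochondrial genes tested did not pass, AOX1A, the alternative oxidase usually taken as a marker of mitochondrial stress, having 342, 341 and 318 normalized counts at 4 min, against 308, 247 and 272 at 0 min (adjusted p = 0.325). CAF1a (AT3G44260), a deadenylase that shortens the poly(A) tails of mRNAs, had 1276, 691 and 909.7 normalized counts at 4 min, against 256, 250.3 and 197 at 0 min. On the log2 scale the change was 1.99 ± 0.20 (adjusted p = 0.000298). It was the 1 gene of 12 in the mRNA deadenylation and decay list to pass.

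Signalling, hormone and defence genes rose in small numbers, given here beside a share of 0.754% that rose over all genes tested. MKK9 (AT1G73500), a MAP kinase kinase, had 371, 241 and 282 normalized counts at 4 min, against 126, 128 and 121 at 0 min, and its log2 change was 1.22 ± 0.19 (adjusted p = 0.00832). It was the 1 rise among 21 genes of ROS production, H2O2 perception and MAP kinases. RBOHD, the main NADPH oxidase of stress responses, had 673, 646 and 691 normalized counts at 4 min, against 687, 532 and 621 at 0 min, and AT5G49760, the gene of the H2O2 sensor HPCA1, had 2066, 2392 and 2292 normalized counts at 4 min, against 2478, 2161 and 2136 at 0 min; the groups overlapped in both. ACS6 (AT4G11280) and ACS7 (AT4G26200), which make the ethylene precursor ACC, were the 2 rises of 21 ethylene genes. ACS6 had 261, 155 and 176 normalized counts at 4 min, against 111, 79.7 and 77.2 at 0 min, and ACS7 had 289.7, 289 and 315 normalized counts at 4 min, against 145, 137 and 107 at 0 min, with log2 changes of 1.120 and 1.21. BAP1 (AT3G61190), an inhibitor of programmed cell death, had 271, 153 and 201 normalized counts at 4 min, against 71.5, 77.5 and 69 at 0 min, and its log2 change was 1.47 ± 0.20 (adjusted p = 0.00397). NHL3 (AT5G06320), tied to resistance to bacteria, had 1312, 849 and 1118 normalized counts at 4 min, against 591, 587 and 560.4 at 0 min, a change of 0.89. They were the 2 of 25 pattern-triggered immunity genes to rise, while the flagellin marker FRK1 had 150.5, 236 and 267 normalized counts at 4 min, against 272, 171 and 159 at 0 min (adjusted p = 0.91). The ubiquitin ligase list had 2 of 10, PUB22 (AT3G52450) with 660.3, 557 and 574 normalized counts at 4 min, against 408, 274 and 334 at 0 min and ATL2 (AT3G16720) with 688, 542 and 536 normalized counts at 4 min, against 352, 341 and 292 at 0 min. PUB22 is a negative regulator of immune signalling, and ATL2 is a RING protein induced by chitin. Without 4 min replicate 1, MKK9, ACS6, ACS7, NHL3 and PUB22 no longer passed.

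MYB77, MYB96 and MYB30 were the 3 of 24 MYB, NAC and GRAS factors to rise, where 0.754% of all genes tested rose. MYB77 (AT3G50060), which takes part in auxin responses of roots, had 616, 346 and 358 normalized counts at 4 min, against 167, 168 and 198 at 0 min, and its log2 change was 1.25 ± 0.19 (adjusted p = 0.00833). MYB96 (AT5G62470), a regulator of cuticular wax and drought responses, had 824, 677 and 771 normalized counts at 4 min, against 446, 285 and 426 at 0 min, and its log2 change was 0.99 ± 0.18 (adjusted p = 0.0212). MYB30 (AT3G28910), a regulator of hypersensitive cell death, had 829, 834 and 828 normalized counts at 4 min, against 667, 584 and 509 at 0 min, a log2 change of 0.51. Its 4 min libraries were nearly equal and the spread lay in the 0 min libraries. Without 4 min replicate 1 the list had 1 rise, MYB77. Levels of the NAC factor gene ANAC019 (NAC019) were 7.86, 4.29 and 8.81 normalized counts at 4 min, against 19.6, 11.2 and 16.3 at 0 min, with a log2 change of -1.08 that did not pass (adjusted p = 0.181).

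**Figure D3:**
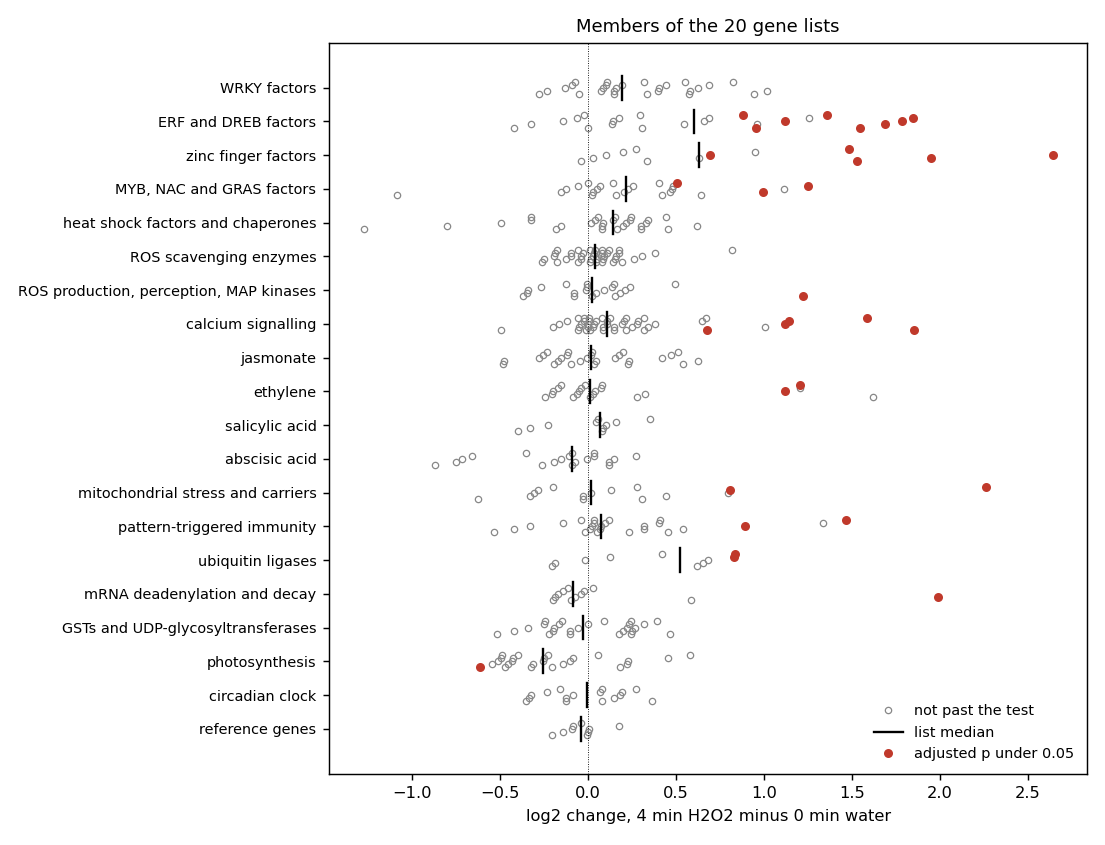
Each circle is 1 tested member of 1 of 20 gene lists, placed by its log2 change at 4 min of H2O2 relative to 0 min in water, with filled red circles at an adjusted p under 0.05 and a black bar at the list median. The ERF list has 8 filled circles and a median of 0.60, and the zinc finger and calcium lists have 5 each and medians of 0.63 and 0.11, whereas the ROS scavenging and heat shock lists have none and medians of 0.04 and 0.14. The lists were chosen with earlier results of these data known.

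In the list of ROS scavenging enzymes, 0 of 40 passed in either direction in limma, DESeq2 or edgeR. Besides enzymes that remove H2O2, the list holds superoxide dismutases and enzymes that recycle ascorbate and glutathione. At an unadjusted p under 0.05 in limma, 2 were higher and 4 lower. At that threshold 8.6% of all genes tested were higher and 7.02% lower. CAT2, the main leaf catalase, had 24563, 21492 and 19802 normalized counts at 4 min, against 16309, 16729.7 and 17308 at 0 min and a log2 change of 0.38 (adjusted p = 0.324). CAT3 had 35507, 37498 and 36950.3 normalized counts at 4 min, against 43994, 45183 and 42423 at 0 min, with a change of -0.26 (adjusted p = 0.276). Every 4 min library lay below every 0 min library for CAT3, as in 9.5% of all genes tested. APX1, the cytosolic ascorbate peroxidase, had 11232, 10288 and 10477 normalized counts at 4 min, against 10441, 11475 and 9041 at 0 min, and the groups overlapped. Heat shock factors and chaperones, many of which respond to H2O2 over longer times, likewise had 0 of 27 past the test in all 3 tools, with 6 higher at an unadjusted p under 0.05. HSFA2 had 25.8, 25.7 and 35.2 normalized counts at 4 min, against 26.4, 30.3 and 24.5 at 0 min. In the small heat shock gene HSP17.4, 4 min replicate 2 was far below the other 4 min and 0 min libraries, with 40.4, 3.21 and 69.6 normalized counts at 4 min, against 61.7, 52.8 and 50.9 at 0 min.

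None of the 27 WRKY genes tested passed in limma or edgeR, but 11 were higher at an unadjusted p under 0.05 and 2 passed in DESeq2. At that unadjusted threshold 8.6% of all genes tested were higher and 7.02% lower, the background for every such count in this paragraph. DESeq2 called 368 of the 19485 genes higher and 125 lower. WRKY46, a defence regulator, came closest, with 74.1, 66.4 and 59.9 normalized counts at 4 min, against 43.1, 25.8 and 35.4 at 0 min; its estimate was 0.95 in log2 units (adjusted p = 0.0555). WRKY33, which controls camalexin synthesis, had 1075, 916 and 1081 normalized counts at 4 min, against 825, 605 and 643 at 0 min, with a change of 0.58 (adjusted p = 0.0636). For WRKY40 the values were 448, 317 and 371 normalized counts at 4 min, against 307, 153 and 267 at 0 min (adjusted p = 0.204). In all 3 genes the groups did not overlap, as in 10.5% of all genes. Among hormone lists other than ethylene, 0 of 27 jasmonate, 0 of 10 salicylic acid and 0 of 19 abscisic acid genes passed in limma, and at an unadjusted p under 0.05 they had 7, 1 and 1 higher and 3, 1 and 1 lower. DESeq2 called 1 jasmonate gene higher and 0 in the other lists, and edgeR called 0 in all 3. JAZ1, a repressor of jasmonate signalling, had 528, 523 and 730.1 normalized counts at 4 min, against 432, 312 and 403 at 0 min (adjusted p = 0.0555). Glutathione S-transferase and UDP-glycosyltransferase genes had 0 of 26 in limma and edgeR and 1 higher in DESeq2, with 2 higher and 1 lower at an unadjusted p under 0.05. The 16 clock genes and 9 reference genes had 0 calls in all 3 tools, with 2 and 0 higher and 1 and 2 lower at an unadjusted p under 0.05.

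Outside these lists and the 20 largest rises, several genes were picked out after their values had been seen, for what their products do. TCH4 (AT5G57560), a touch-induced xyloglucan endotransglucosylase of the cell wall, had 4921, 2852 and 3321 normalized counts at 4 min, against 1428, 1498 and 1531 at 0 min, and its log2 change was 1.28 ± 0.23 (adjusted p = 0.0222). It was 1 of 3 rises among 25 xyloglucan endotransglucosylase/hydrolase genes, with XTR6 and XTH18. KCS12 (AT2G28630), of the family that elongates very-long-chain fatty acids, had 3639, 2503 and 3255 normalized counts at 4 min, against 1329, 1210.2 and 1195 at 0 min, and its log2 change was 1.31 ± 0.22 (adjusted p = 0.0148). YUC5 (AT5G43890), of the auxin synthesis family of flavin monooxygenases, had 79.7, 76.1 and 94.2 normalized counts at 4 min, against 40.2, 34.8 and 33.6 at 0 min, a change of 1.18. SIB1 (AT3G56710), a partner protein of WRKY33, had 21.3, 22.5 and 22 normalized counts at 4 min, against 7.83, 6.74 and 8.17 at 0 min, a change of 1.42. Of 25 nudix hydrolase genes 3 rose, NUDT21, NUDT4 and NUDT17, and NUDT17 (AT2G01670) was tight in both groups, with 1783, 2044 and 1877 normalized counts at 4 min, against 1207, 1119 and 1281 at 0 min and a log2 change of 0.66 ± 0.08 (adjusted p = 0.00242). Of 26 B-box genes 3 rose as well, COL9, BBX15 and BZS1, by 0.66, 0.56 and 0.63 on the log2 scale. The shares that rose were 12%, 12% and 11.5% in the xyloglucan, nudix and B-box families, against 0.754% of all genes tested. Their family medians were -0.10, 0.04 and 0.002. NYC1 (AT4G13250), a chlorophyll b reductase, had 5865, 5127 and 5322 normalized counts at 4 min, against 4066, 3746 and 3986 at 0 min, and its log2 change was 0.47 ± 0.08 (adjusted p = 0.0125). AT2G09225, an RNA gene that rose by 1.69, lies opposite the calmodulin gene CAM2 over 609 bases, so its reads and those of CAM2 are separable only if strand was used.

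The 11 falls held no large change. NAKR2 (AT2G37390), annotated as a copper chaperone, had 15.7, 21.4 and 20.3 normalized counts at 4 min, against 43.1, 38.2 and 47.2 at 0 min, and its log2 change was -1.13 ± 0.22 (adjusted p = 0.0352). AT2G47780, a rubber elongation factor family gene, had 449, 647 and 675 normalized counts at 4 min, against 1003, 1145 and 1376 at 0 min, and its log2 change was -1.002 ± 0.19 (adjusted p = 0.0297). AT5G15120, annotated as a thiol dioxygenase, had 82, 93.2 and 123 normalized counts at 4 min, against 199.8, 154 and 236 at 0 min, a change of -0.97. AT2G39430, a dirigent-like gene, had 191, 205 and 196 normalized counts at 4 min, against 297, 339 and 296 at 0 min, and its log2 change was -0.65 ± 0.10 (adjusted p = 0.0104). An RNA gene on the opposite strand, AT2G09045, covers 1109 bases of it. The peroxidase gene AT5G66390 had 547, 519.6 and 485 normalized counts at 4 min, against 761, 767 and 759 at 0 min, with a change of -0.56 and 0 min libraries within 10 counts of each other. LHCB2.2 (AT2G05070), a light-harvesting protein of photosystem II, was the most abundant, with 11574, 14982 and 12657 normalized counts at 4 min, against 17923, 23024 and 19040.4 at 0 min, and its log2 change was -0.61 ± 0.13 (adjusted p = 0.0435). It shares 308 of its 1094 stretches of 50 bases with LHCB2.1 (AT2G05100), which had 16614, 21659 and 18157 normalized counts at 4 min, against 22819, 30710 and 25709 at 0 min (adjusted p = 0.0991). In the photosynthesis list 1 of 25 genes fell, against 0.0565% of all genes tested, and 0 rose. The list median was -0.25, with a range from -0.61 in LHCB2.2 to 0.58 in RBCS1B. At an unadjusted p under 0.05, 11 were lower and 2 higher, against 7.02% and 8.6% of all genes tested. DESeq2 called 8 lower and 1 higher, against 125 and 368 of all 19485 genes. The remaining falls were GLN1.3, a cytosolic glutamine synthetase, EXP3, an expansin, the methyltransferase gene AT1G15125, AT4G10955 and AT5G52540, with changes of -0.54, -0.47, -0.79, -0.49 and -0.41. None of the 11 passed in all 12 fits that left out 1 library, and 0 passed without 4 min replicate 1.

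The genes that rose most had few introns. Of the 66 genes with a log2 change of 1 or more, 51 (77.3%) had a longest annotated transcript of 1 exon, as did 39 of the 81 that rose by less (48.1%) and 2966 of all genes tested (15.3%). Read the other way, 90 of the 2966 genes with 1 exon rose (3.03%), against 28 of 2893 with 2 exons (0.968%) and 29 of 13525 with 3 or more (0.214%). STZ, RHL41, ZAT6, CAF1a, DIC2, CML23, ERF104, ERF5, MYB77 and MKK9 all have 1 exon, while the exceptions include AT5G20260 with 4. The median transcript length was 1210 bases in the 66 genes, 1701 in the 81 and 1747 over all genes, and the median GC content was 39.1%, 39.2% and 41.3%. Across 19384 genes the log2 change correlated with GC content at a Spearman rho of -0.20, a description over genes of the same libraries. After each library was corrected for GC content, an alternative chosen after seeing the data, 102 genes were higher, 99 of them among the 147, and 55 of the 66 larger rises passed against 44 of the 81 smaller ones.

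The levels at 2 and 8 min place these genes in time, and the changes at all 3 times share the 0 min libraries. The 66 larger rises had a median log2 change of 0.62 after 2 min, then 1.49 after 4 min and 1.80 after 8 min, while the 81 smaller ones had 0.37, 0.63 and 0.56. In limma 16 genes were higher at 4 min than at 2 min (0.0821% of those tested) and 0 were lower, also in DESeq2 (39 higher) and edgeR (15 higher). At an unadjusted p under 0.05, 391 were higher (2.01%) and 213 lower (1.09%). The 16 calls rest on few libraries, since none remained in the fit of the 4 and 2 min libraries alone, or without 4 min replicate 1, 4 min replicate 3, 2 min replicate 2 or 2 min replicate 3. AT1G72920 had 173, 82.5 and 90.7 at 4 min, against 31.5, 21.9 and 26.1 at 2 min, and CAF1a had 1276, 691 and 909.7 against 356, 278 and 271. At 2 min AT1G72920 overlapped its 0 min range, and CAF1a lay just above its own. No gene passed between 8 and 4 min in limma, while 343 were higher (1.76%) and 203 lower (1.04%) at an unadjusted p under 0.05, DESeq2 called 31 higher and 2 lower, and edgeR called 2 higher. DIC2 had 1189, 1059 and 826 at 8 min, against 650.2, 414 and 415 at 4 min, which did not pass (adjusted p = 0.248 in limma). KCS12 and AT3G23450 were already near their 4 min levels at 2 min, with 3172, 4126 and 2450.2 for KCS12 at 2 min and 2803, 2745 and 1519.9 at 8 min. AT3G23450 had 1303, 1383 and 1313 at 2 min, 1197, 1426 and 1377 at 4 min and 1108, 936 and 926 at 8 min.

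**Figure D4:**
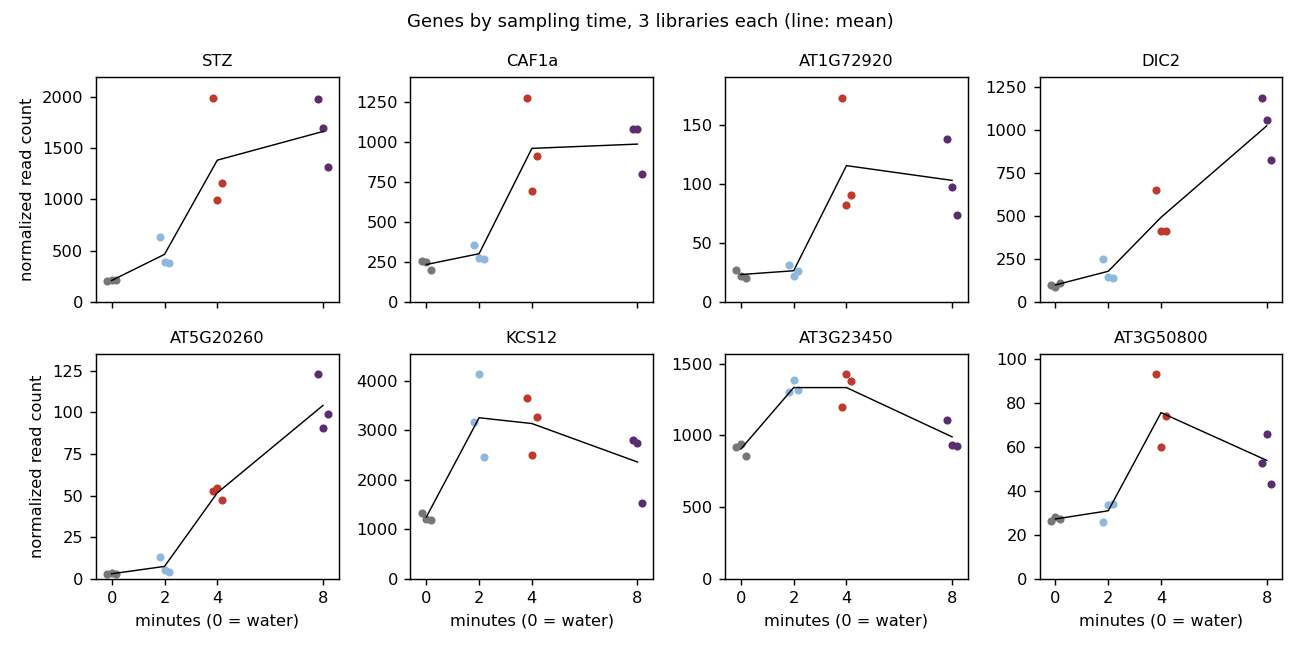
Normalized read counts of 8 genes by minutes after addition (0 min in water, 2, 4 and 8 min in 1 mM H2O2), with 1 point per library, shifted slightly sideways, and a line through the means. STZ, CAF1a and AT1G72920 climb mainly between 2 and 4 min, DIC2 and AT5G20260 are highest at 8 min, AT3G50800 has its highest mean at 4 min, and KCS12 and AT3G23450 lie above their 0 min points at 2 min already.

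The 4 min libraries were not raised evenly. Replicate 1 held the highest of the 3 values for 114 of the 147 genes, where 37.3% of all tested genes had their highest value in that library. The median log2 level of the 147 genes relative to the 0 min mean was 1.15 in replicate 1, 0.78 in replicate 2 and 0.87 in replicate 3. Without replicate 2, the library low in dry seed markers, the lists kept their number of rises except for calcium signalling (4 in place of 5), MYB, NAC and GRAS factors (2 in place of 3), ubiquitin ligases (1 in place of 2) and pattern-triggered immunity (3 in place of 2). All 41 genes that passed without replicate 1 belonged to the 147, and 38 of the 147 passed in each of the 12 fits that left out 1 library. Of the 20 largest rises, those that did not pass without replicate 1 were AT4G27654, AT4G27657, AT5G46295, AT5G57510 and RTFL12.

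**Figure D5:**
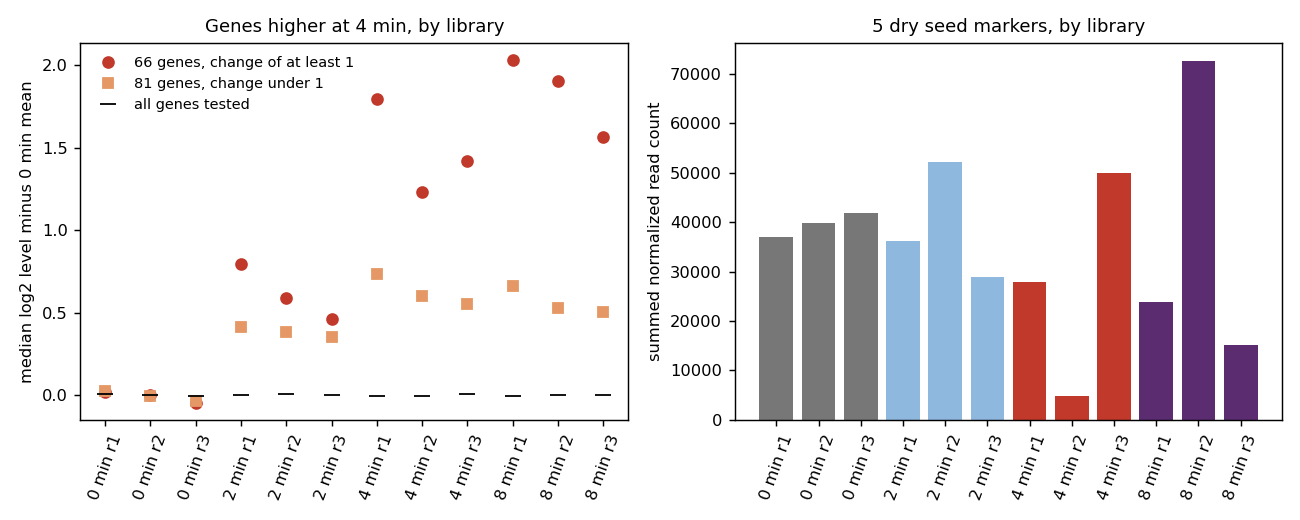
Left, the median log2 level, relative to the 0 min mean, of the 66 genes with a change of 1 or more (circles), the 81 with a smaller change (squares) and all tested genes (bars) in each of the 12 libraries. Right, the summed normalized read count of 5 dry seed markers in the same libraries, in which 4 min replicate 2 has the lowest sum, 4809, while its 66 genes lie at 1.23, below the 1.80 and 1.42 of replicates 1 and 3.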

How the data were processed

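Total RNA of whole Col-0 seedlings was isolated with Trizol and made into libraries with a TruSeq kit. Per the labels and the study's methods, reads were tested with FastQC 0.11.7, aligned to TAIR10 with STAR 2.4.0.1 and normalized with DESeq2 1.20.0. The counter, and whether it used strand, is not given in the sources used here, and reads mapping to several places were kept up to a limit. The deposited values are a signal, gene reads divided by 1 size factor per library. Dividing by the smallest step gave whole reads for 100% of values (tolerance 1e-06), and edgeR and DESeq2 were run on those reads as alternatives. Every gene listed had at least 1 read in all 12 libraries, so a gene without reads at 0 min could not appear.

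All 12 libraries were fitted together with limma 3.58.1 (trend, R 4.3.3) on log2(value + 1), for genes with a mean of at least 10, and adjusted by Benjamini-Hochberg over 19485 genes with a threshold of 0.05. Fold changes on this scale understate those of low genes. Values are given per library, intervals cover counting error only, and an exact permutation test of 3 against 3 libraries cannot go below p = 0.1. Repeats are as the labels number them. Tables and figures were made in Python 3.11.15 with pandas 2.3.3 and matplotlib 3.10.9. On simulated data with 200 of 19495 genes changed 2-fold between 4 and 0 min, limma recovered 99% with 6.60% false calls. The changed genes all had a mean of at least 50, spread followed 1 smooth trend with the mean, and no library was made to stand apart. The 99% is therefore not the sensitivity to 2-fold changes in the real libraries.

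Genes were named by rule, the 20 largest rises past the threshold (each pair of libraries with 1 number having moved alike), all falls, and members of 20 gene lists that passed. The 16 genes that passed between 4 and 2 min were named as well. Defining members that did not pass were given by value. The genes and lists were chosen with earlier results of these data known. Names, coordinates, exons and upstream sequences came from RefSeq's TAIR10.1 annotation, in which 20858 of the 20972 identifiers were found. Alternatives were the pseudocount (0.1 and 5), the filter (none and 50), quantile normalization, edgeR 4.0.16 with TMM, DESeq2 1.42.0, separate fits, a replicate block, stricter thresholds (adjusted p of 0.01, log2 change of 1), leaving out each library and, added after seeing the data, a GC correction.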

Additional observations from a re-analysis of the deposited data

Results flagged for a closer look

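In 16 genes the change from the 0 min libraries differed between 4 and 2 min, by limma's test of 4 min minus 2 min. The differences, in log2 units, were 2.77 in AT5G20260, 2.02 in AT1G72920, 1.63 in CAF1a, 1.61 in AT1G07135, 1.55 in STZ, 1.53 in AT1G35210, 1.52 in AT4G27280, 1.47 in DIC2, 1.29 in ERF104, 1.25 in AT3G50800, 1.19 in ERF5, 1.11 in CML23, 1.07 in AT5G43620, 0.95 in NUDT21, 0.83 in RDUF1 and 0.79 in GATL10. Adjusted p-values in limma ran from 0.0115 in AT5G20260 and CAF1a to 0.0479 in AT3G50800. All 16 genes were higher at 4 min than at 2 min. AT3G50800 overlaps AT3G50790 on the same strand by 126 bases, and AT5G43620 shares 73 of 1469 stretches of 50 bases with AT1G66500, another pre-mRNA cleavage complex II gene that rose at 4 min. With 3 libraries in each group, no test for an outlying value was run on single genes.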

How the results depend on the processing

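None of the 60 genes named by rule changed sign under any alternative run, and the median change of all genes stayed within 0.1 of 0. DESeq2 called 368 genes higher at 4 min than at 0 min and 125 lower, which lowered the share of higher calls to 74.6%; 139 of the 147 were among them. edgeR called 130 and 8. The stricter threshold of 0.01 left 48 and 0, that of a log2 change of 1 left 66 and 2, and the GC correction left 6 lower. Leaving out 1 library at a time gave 41 to 318 genes higher and 0 to 54 lower, the extremes coming without 4 min replicate 1 and without 8 min replicate 1. Without 0 min replicate 3 there were 60 higher and 5 lower, and without 4 min replicate 3 there were 67 and 7. For 4 against 2 min, DESeq2 called 39 higher, the separate fit 0 and an adjusted p under 0.01 gave 0, and leaving out 1 library gave 0 to 22. For 8 against 4 min the 0 higher calls became 2 with a pseudocount of 5, 31 in DESeq2 (with 2 lower), 2 in edgeR and 0 to 6 without 1 library. Same-numbered 4 and 0 min libraries deviated from their group means with correlations of -0.05 to 0.19, and different-numbered ones with -0.21 to 0.20. Between 2 and 8 min, same-numbered libraries correlated at 0.22 to 0.26 and different-numbered ones at -0.23 to -0.02. Between 4 and 8 min the ranges were -0.33 to 0.23 and -0.34 to 0.46. With 3 libraries in each group, these correlations cannot settle whether the replicate numbers mark pairs. Fitted as a replicate block, the replicate numbers gave 356 higher and 75 lower at 4 min than at 0 min, and 8 higher at 8 min than at 4 min. The separate fit of 4 and 0 min shared 96 of its 144 rises with the 147. The causes of these moves were not tested. Of the 60 genes named by rule, 27 kept their call in all 12 fits that left out 1 library. Genes with few reads, such as AT4G27654, are limited by depth.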

Other observations

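The families and genes given here were picked out after their values had been seen. Of 513 pentatricopeptide and TPR-like genes, many of which encode proteins that process organellar transcripts, 6 rose (1.17%, against 0.754% of all genes tested, a share near that background) and 0 fell, with a family median of 0.10 against -0.01 over all genes. Among the 6, CRR21 (AT5G55740), known for editing a chloroplast transcript, had 403, 417 and 367 normalized counts at 4 min, against 302, 251 and 263 at 0 min, a log2 change of 0.54. Outside that family, CHUP1 (AT3G25690), which anchors chloroplasts for their movement, had 6028, 6303 and 5544 against 4805, 4110 and 4499, a change of 0.42. SS4 (AT4G18240), a starch synthase that starts starch granules, had 2114, 2262 and 2306 against 1686, 1601 and 1824, a change of 0.39. RCAR3 (AT5G53160), an abscisic acid receptor, changed by 0.38. Of 54 SAUR-like auxin-responsive genes 2 rose (3.70%), AT3G12830 and AT3G60690, by 1.51 and 0.78, while the family median was -0.21.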
